A study of Homo sapiens with 6 samples.

Results

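A set of 39 lysosome and autophagy genes was followed in NB4 cells made to overexpress CD69. The genes were chosen by name for their function, with earlier results of these data known: lysosomal membrane proteins, cathepsins, other hydrolases and lumen proteins, the proton pump, the MiT/TFE transcription factors and the autophagy machinery. All 39 were found by Ensembl identifier among the 61806 genes of the count table, and all 39 passed the filter on low counts. NB4 is an established line of acute promyelocytic leukaemia. The study compared 3 libraries from cells carrying a lentiviral CD69 construct (CD69 is an activation marker of lymphocytes), kept stably, with 3 libraries of vector control cells, whose genotype is labelled Wild-type. No drug was given to either group, all cells were harvested in logarithmic growth, and every library carries the same batch number. The submitters describe biological replicates without saying how the cultures were separated, so p-values speak only of spread among these 6 libraries.

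Lysosomes are acidic organelles that break down proteins, glycans, lipids and the cargo that autophagosomes deliver. Their enzymes work at a low pH that the vacuolar proton pump maintains, and their genes are under the shared control of TFEB, TFE3 and MITF, which are held in the cytoplasm while the kinase complex mTORC1 is active and bind a short promoter element, the CLEAR element, once they reach the nucleus. Promyelocytes also form azurophil granules, which are related to lysosomes.

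Total counts lay between 51543550 and 57463020 per library. CD69 itself stood at 70.6 to 81.8 CPM (counts scaled to library size with TMM factors, a relative level) in control cells against 95.7 to 99.1 CPM in cells labelled as overexpressing it (log2 fold change 0.33, SE 0.07, adjusted p = 0.0153 by edgeR). The azurophil proteases that mark promyelocytes were present (ELANE, PRTN3, AZU1 and CTSG, each at 100.2 CPM or more in every library), but myeloperoxidase, MPO, held only 0.518 to 1.45 CPM. Overexpressing replicate 1 stood apart from replicates 2 and 3 on the first principal component (score 32.4 against 74.8 and 74.3, with the controls between -61.7 and -59.5). Of 14 markers of B cells, 4 rose and 1 fell, 1 was at 0 in every library, and they summed to 65.5 to 73.1 CPM in control cells. The overexpressing replicate 1 had 50.9 CPM of them, and replicates 2 and 3 had 135 and 133. Of 18 monocyte and macrophage markers, 4 rose and 1 fell, 9 stayed under 1 CPM in every library, CD163 and the C1Q genes were at 0 in every control, and the summed level, most of it GPNMB, was 308 to 317 CPM in the controls and 345 to 379 CPM in the overexpressing libraries. Of 8 promyelocyte markers, 3 rose (ELANE, PRTN3 and AZU1) and 1 fell, and their sum was 1586 to 1741 CPM against 2611 to 2972 CPM. Of 10 neutrophil markers, 4 fell and none rose (241 to 266 CPM against 193 to 208 CPM, most of it CSF3R). Of 10 T and NK cell markers 1 rose and 2 fell, and 7 stayed under 1 CPM in every library, with 3 at 0 throughout. Their sum (387 to 433 against 379 to 387 CPM) was mostly CD4, which alone held 332 to 359 CPM in the controls. The 10 erythroid and megakaryocyte markers were each under 1 CPM everywhere. The part of these markers in the results below was not tested. In such bulk samples, fewer cells with a transcript and less transcript per cell cannot be told apart.

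The set did not move as a block. Of the 39 genes, 13 were higher under CD69 overexpression, 6 were lower, and 20 did not pass the test (edgeR's quasi-likelihood test; a call is an adjusted p under 0.05 after Benjamini-Hochberg correction over 19485 genes). Among all genes tested, 14.2% were called higher and 9.94% lower (24.1% either way), and among the 10248 coding genes of at least 5 mean CPM the shares were 17.9% and 15.6%, against 33.3% and 15.4% of the set. The median log2 fold change of the set was -0.01, beside 0.01 over all genes tested. The 3 overexpressing libraries lay above all 3 controls for 15 genes of the set and below them for 10 (over all genes tested 23% and 19.3%, or 42.3% either way). Without overexpressing replicate 1, 12 were higher and 5 lower, and without overexpressing replicate 2 the lower genes numbered 3. The rises were the larger changes: LAMP5, CTSD and TFEB each at least doubled, while the steepest called fall, in MCOLN1, left 0.609 of the control level.

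**Figure D1:**
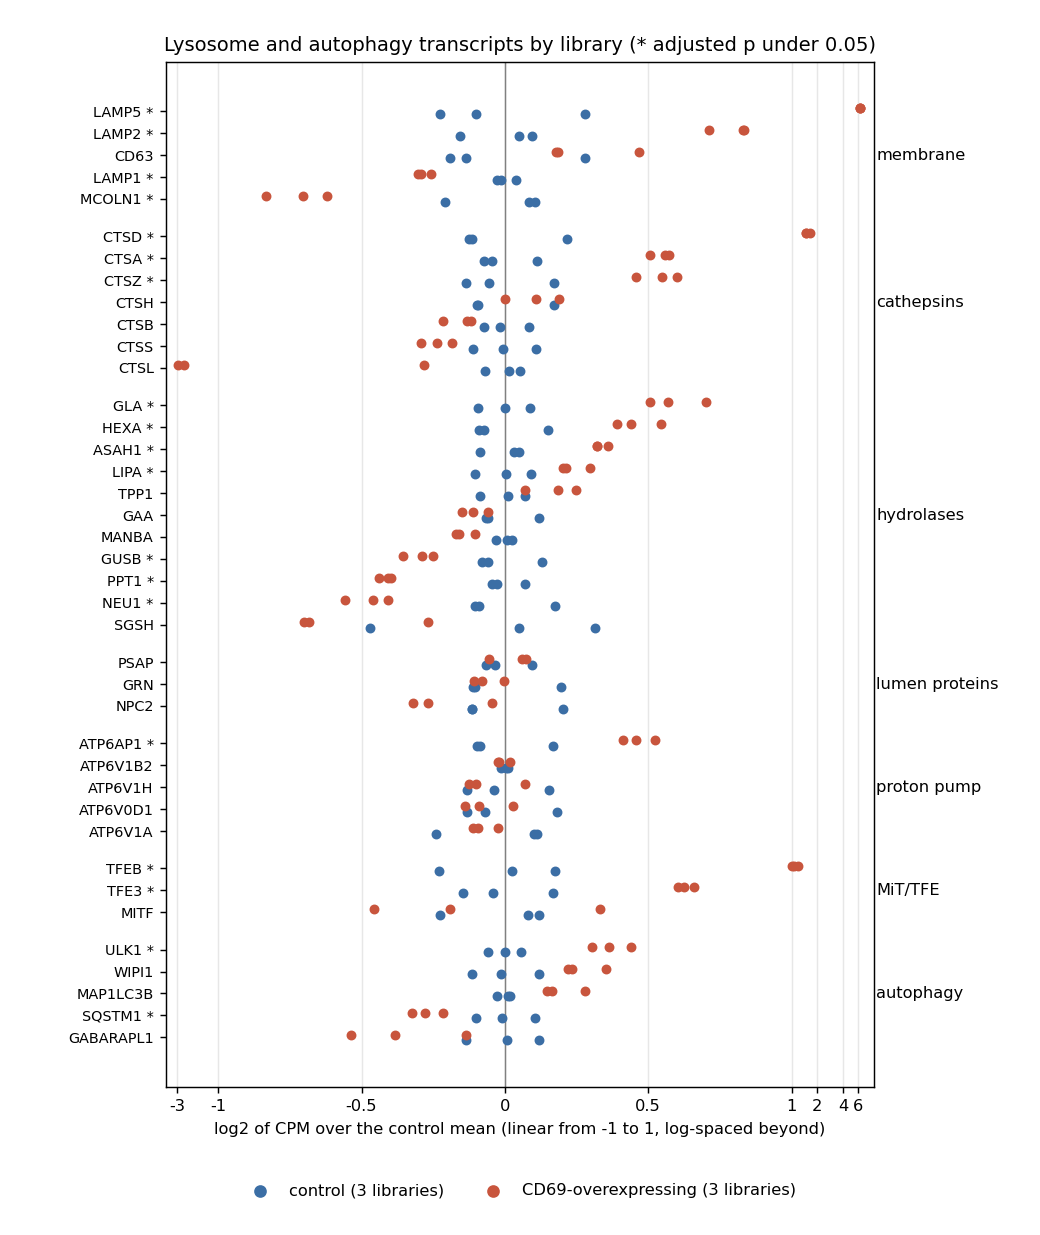
Each row is 1 gene and each point 1 library, as the log2 of its CPM over the mean of the 3 controls (blue, control; red, CD69-overexpressing; the axis is linear between -1 and 1 and log-spaced beyond). LAMP5, CTSD and TFEB lie far to the right, most proton pump and lumen protein genes overlap, and CTSL has 1 overexpressing library near the controls and 2 far below.

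The transcription factors of the set were examined before their known targets. TFEB (ENSG00000112561; GRCh38 chromosome 6, 41683978 to 41736259, minus strand) held 16.5, 19.6 and 21.8 CPM in control cells against 38.9, 40.6 and 44.2 CPM under CD69 overexpression. The groups were well apart, and the log2 fold change was 1.09 (SE 0.12, adjusted p = 0.000557), about a doubling. TFE3 (chromosome X, 49028726 to 49043486), its close relative, held 24.6, 26.5 and 30.6 CPM in control cells against 43.0, 41.4 and 42.0 CPM under CD69 overexpression. Every overexpressing library was above every control, with a log2 fold change of 0.63 (SE 0.09, adjusted p = 0.00266). MITF, the factor best known from melanocytes, was the scarcest, at 8.21, 7.99 and 6.46 CPM against 9.495, 6.62 and 5.50 CPM, and its groups overlapped (log2 fold change -0.07, SE 0.22, adjusted p = 0.858). The last relative, TFEC, which belongs to a list of nutrient-sensing genes described further on, went from 30.2 ± 5.24 down to 15.5 ± 1.70 CPM (mean ± SD, n = 3), a log2 fold change of -0.96 (SE 0.15). Transcript levels do not show where these proteins were in the cell.

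The letters these factors bind were then looked up in the promoters, because the set holds many of their textbook targets. The search covered 250 bases before to 50 after each RefSeq start (GRCh38.p14) and used CACGTG, its longer form TCACGTGA and the full palindromic CLEAR consensus, each of which reads the same on both strands and contains the one before it. Of the 39 genes, 28 had an entry, and 8 of these (28.6%) held CACGTG, against 8.77% of 27305 genes with an entry. TCACGTGA was present in 5 (17.9%, against 1.18%) and the full consensus in 2 (7.1%, against 0.42%). A gene counted if any of its listed starts held the letters, and 6 of the 28 had 2 or more starts. The 27305 genes were not limited to expressed or coding ones, so these shares are not of like sets. The stretches upstream of the start that hold these letters are shown for all 8 genes, 5′ to 3′ on the gene's own strand, with each CACGTG in capitals.
CTSA, chr20:45891276-45891332, plus strand: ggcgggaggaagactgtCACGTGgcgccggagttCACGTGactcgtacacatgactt
CTSD, chr11:1763952-1763991, minus strand: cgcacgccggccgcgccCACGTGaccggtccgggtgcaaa
LAMP1, chr13:113297030-113297233, plus strand: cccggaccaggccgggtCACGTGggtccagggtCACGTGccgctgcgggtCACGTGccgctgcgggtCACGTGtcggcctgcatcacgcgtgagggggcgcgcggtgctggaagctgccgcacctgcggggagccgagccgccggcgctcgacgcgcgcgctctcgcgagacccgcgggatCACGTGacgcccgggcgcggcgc
MCOLN1, chr19:7522566-7522623, plus strand: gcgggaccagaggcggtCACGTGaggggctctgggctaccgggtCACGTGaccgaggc
NEU1, chr6:31862925-31862964, minus strand: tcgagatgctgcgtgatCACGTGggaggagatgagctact
GAA, chr17:80101488-80101572, plus strand: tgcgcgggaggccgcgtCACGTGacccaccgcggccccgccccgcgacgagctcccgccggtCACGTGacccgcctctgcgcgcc
ATP6V0D1, chr16:67481194-67481233, minus strand: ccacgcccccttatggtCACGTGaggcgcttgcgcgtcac
CD63, chr12:55729167-55729206, minus strand: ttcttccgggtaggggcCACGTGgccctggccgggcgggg

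The genes with these letters moved in both directions. Of the 8, CTSA and CTSD were higher, LAMP1, MCOLN1 and NEU1 were lower, and GAA, ATP6V0D1 and CD63 did not pass the test. LAMP1 had the most copies, 6 in the searched window including 1 at the start site itself, and fell. GAA and MCOLN1, the 2 genes with the full consensus, had log2 fold changes of -0.11 (adjusted p = 0.332) and -0.72 (adjusted p = 0.0051). Among the 28 genes with an entry, CACGTG was found in 2 of the 10 called higher, 3 of the 6 called lower and 3 of the 12 not called. A match is a match of letters only, and binding was not measured.

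Membrane proteins of the lysosome split into rises and falls. LAMP5, a LAMP family member known from neurons and plasmacytoid dendritic cells (ENSG00000125869; chromosome 20, 9514358 to 9530524, plus strand), held 4.02, 3.69 and 5.23 CPM in control cells against 333, 324 and 334 CPM under CD69 overexpression. As counts, 225, 209 and 293 stood against 18641, 18279 and 17060. The log2 fold change was 6.26 (SE 0.14, adjusted p = 5.75e-07), a 76.6-fold rise that was alike in all 3 libraries. The antisense transcript LAMP5-AS1, whose exons overlap 7.49% of those of LAMP5, moved with it, from 0, 2 and 0 counts to 32, 33 and 31. These counts are few beside those of LAMP5. The strand setting of the counting is not given, so their strand is uncertain.

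LAMP2, one of the main glycoproteins of the lysosomal membrane and a receptor in chaperone-mediated autophagy (chromosome X, 120427827 to 120469365), held 249, 241 and 209 CPM in control cells against 414, 415 and 382 CPM under CD69 overexpression. All overexpressing libraries were higher (log2 fold change 0.79, SE 0.08, adjusted p = 0.00048). LAMP1, its partner of similar structure (chromosome 13, 113297241 to 113323672), went the other way. It held 708, 716 and 741 CPM in control cells against 604, 590 and 585 CPM under CD69 overexpression. The log2 fold change was -0.28 (SE 0.05, adjusted p = 0.00798), and the call was lost without overexpressing replicate 2 (adjusted p = 0.0538; range over 17 alternatives 9.53e-05 to 0.436). The level of LAMP2 was thus 233 ± 20.9 CPM beside 721 ± 17.5 CPM of LAMP1 in the controls, and 404 ± 19.2 beside 593 ± 10.0 CPM in the overexpressing cells (SD, n = 3). Per kilobase of exon the pair stood at 42.2 and 126 in the controls and 73.1 and 103 CPM per kb in the overexpressing cells.

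MCOLN1 encodes the cation channel that releases calcium from lysosomes. It held 15.97, 19.9 and 19.6 CPM in control cells against 12.03, 11.4 and 10.4 CPM under CD69 overexpression, with no overlap (log2 fold change -0.72, SE 0.12). CD63, a tetraspanin of late endosomes and azurophil granules, held 163, 169 and 226 CPM in control cells against 210, 211 and 257 CPM under CD69 overexpression. Control replicate 3 lay among the overexpressing libraries, and the log2 fold change of 0.28 (SE 0.14) did not pass (adjusted p = 0.188). It passed without that library (log2 fold change 0.45, adjusted p = 0.0205).

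**Figure D2:**
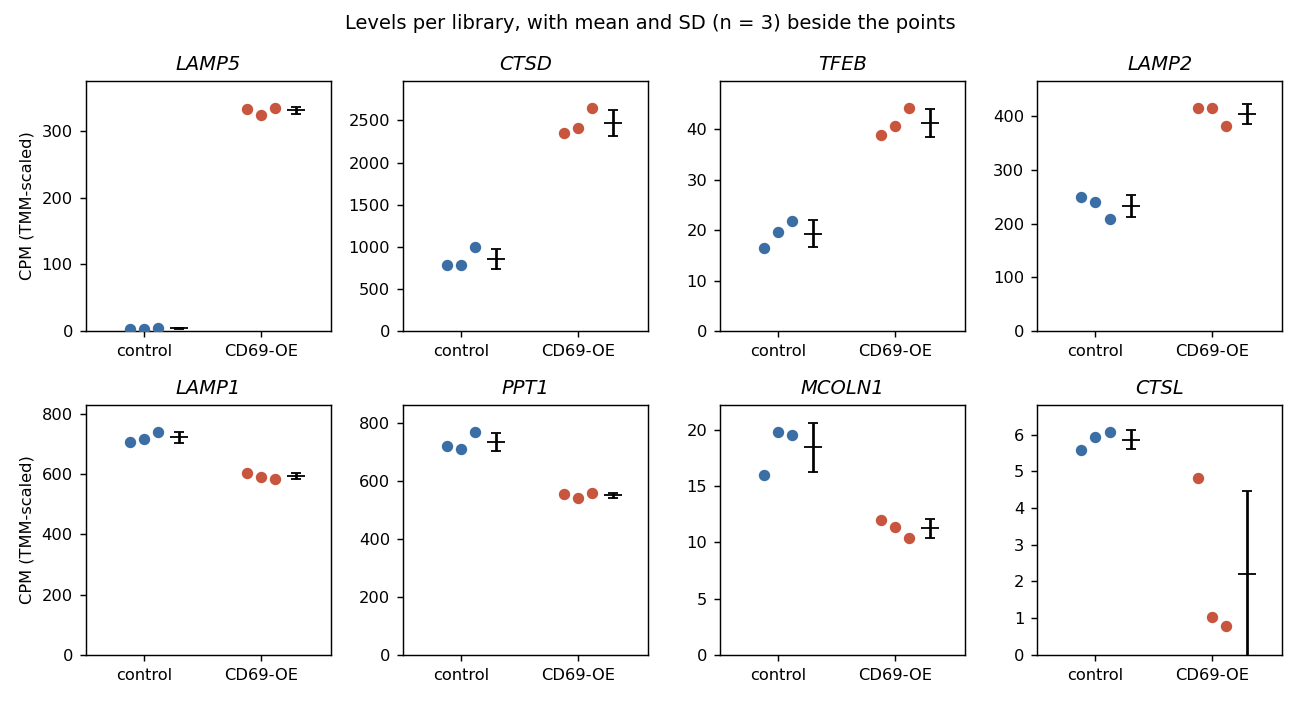
Points are CPM of 1 library each, and the bars beside them are the mean and SD of 3 libraries; every axis starts at 0. LAMP5, CTSD, TFEB and LAMP2 are higher in all 3 overexpressing libraries, LAMP1, PPT1 and MCOLN1 are lower in all 3, and CTSL is low in replicates 2 and 3 only.

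Of the 7 cathepsins, the proteases of the lysosome, 3 rose and 4 did not pass. CTSD, the main aspartic protease (ENSG00000117984; chromosome 11, 1752752 to 1764573, minus strand), was the most abundant gene of the set. It held 790, 785 and 995 CPM in control cells against 2353, 2405 and 2648 CPM under CD69 overexpression. The lowest overexpressing library was more than 2 times the highest control (log2 fold change 1.53, SE 0.11, adjusted p = 8.35e-05). Part of its count is uncertain, since 41.7% of its exon bases are shared with another annotated gene on the same strand, ENSG00000250644. That gene held 165 to 282 counts in the controls and 132 to 347 in the overexpressing libraries and did not pass the test (log2 fold change -0.05).

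CTSA, a carboxypeptidase that also shields NEU1 and GLB1 from breakdown (chromosome 20, 45890144 to 45898820), held 271, 277 and 308 CPM in control cells against 420.4, 405 and 425 CPM under CD69 overexpression. CTSZ, another carboxypeptidase on the same chromosome (58995185 to 59007247), held 183, 173 and 214 CPM against 277, 261 and 288 CPM. Neither gene's groups overlapped, and the log2 fold changes were near each other at 0.55 (SE 0.07) and 0.54 (SE 0.09). CTSB, an abundant cysteine protease at 509 ± 28.2 CPM in the controls and 457 ± 16.3 CPM in the overexpressing cells, and CTSS, which trims the MHC class II chaperone, at 78.0 ± 6.02 and 66.2 ± 2.48 CPM, had all overexpressing libraries below all controls without passing (log2 fold changes -0.15 and -0.24, adjusted p = 0.13 and 0.0595). CTSS passed without control replicate 3 (adjusted p = 0.0177), with RLE or upper-quartile factors (0.0446 and 0.0444) and by DESeq2 (0.0224). CTSH, an aminopeptidase, overlapped between groups (log2 fold change 0.10, SE 0.09).

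CTSL, a cysteine protease close to CTSV, was the gene of the set in which the overexpressing libraries differed most. It had 313, 336 and 341 counts in control cells against 270, 58 and 40 under CD69 overexpression, or 5.59, 5.92 and 6.09 against 4.82, 1.03 and 0.784 CPM. Replicate 1 was close to the controls and replicates 2 and 3 were far below, so the log2 fold change of -1.40 had an SE of 0.63 and did not pass (adjusted p = 0.149). Without overexpressing replicate 1 the value was -2.70 (SE 0.23, adjusted p = 0.000501), and limma-voom called it on all 6 libraries (adjusted p = 0.0306). On the log2 scale, replicate 1 exceeded the mean of replicates 2 and 3 by 2.41 for CTSL and by 0.65 for MITF. Over the other 37 genes this value lay between -0.21 and 0.32. Outside the set, CTSF and LGMN, named after their values were seen, had a like split under CD69 overexpression. They held 152, 22 and 20 counts and 328, 74 and 74 counts in replicates 1, 2 and 3. CTSV did not show it, with 319, 235 and 313.

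The other hydrolases, each known from a storage disease when it is missing, gave 4 rises and 3 falls among 11. GLA, the alpha-galactosidase of Fabry disease (chromosome X, 101397803 to 101408012), held 54.5, 58.1 and 61.8 CPM in control cells against 86.2, 82.5 and 94.6 CPM under CD69 overexpression, a clear separation (log2 fold change 0.59, SE 0.08). HEXA, the alpha subunit of beta-hexosaminidase (chromosome 15, 72340919 to 72376476), held 206, 203 and 240 CPM in control cells against 293, 283 and 315 CPM under CD69 overexpression (log2 fold change 0.46, SE 0.08). Its antisense transcript HEXA-AS1 also rose (0.96, SE 0.19), and the strand setting of the counting is not given in the sources used here. ASAH1, the acid ceramidase, held 262, 260 and 239 CPM in control cells against 317, 325 and 317 CPM under CD69 overexpression (log2 fold change 0.33, SE 0.06). LIPA, the acid lipase that frees cholesterol from its esters, held 91.6, 97.4 and 85.0 CPM against 112, 105 and 106 CPM. The difference was the smallest of the called rises (log2 fold change 0.24, SE 0.07, adjusted p = 0.0469). The LIPA call was lost when any 1 of the 6 libraries was left out (adjusted p = 0.056 to 0.154) and under each of the 3 other scalings.

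PPT1, which removes palmitate from proteins (chromosome 1, 40071461 to 40097727), was the most abundant hydrolase outside the cathepsins and fell. It held 720.3, 713 and 771 CPM in control cells against 554, 541 and 558 CPM under CD69 overexpression (log2 fold change -0.42, SE 0.06, adjusted p = 0.002). Its exons overlap those of CAP1 on the opposite strand over 23.4% of their length, and CAP1 fell as well (-0.27, SE 0.05). NEU1, the sialidase that CTSA protects (chromosome 6, 31857659 to 31862906), held 145, 144 and 175 CPM in control cells against 112, 105 and 117 CPM under CD69 overexpression (log2 fold change -0.47, SE 0.09). GUSB, beta-glucuronidase, held 311, 306 and 354 CPM in control cells against 265, 253 and 272 CPM under CD69 overexpression (log2 fold change -0.30, SE 0.08, adjusted p = 0.0252). The GUSB call was lost without control replicate 1 (adjusted p = 0.0594) and without overexpressing replicate 1 or 2 (0.0745 and 0.12).

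The remaining hydrolases did not pass. GAA, the glucosidase of Pompe disease, stood at 164 ± 12.04 and 152 ± 4.88 CPM, TPP1, a tripeptidyl peptidase, at 272 ± 14.7 and 306 ± 19.2 CPM, and MANBA, beta-mannosidase, at 63.4 ± 1.28 and 57.4 ± 1.41 CPM in control and overexpressing cells (SD, n = 3). SGSH, a sulfatase of heparan sulfate breakdown, was near the floor of detection of the set, with 58, 101 and 83 counts against 50, 67 and 45. None of the lumen proteins that assist the enzymes passed either. PSAP, the precursor of the saposins, stood at 477 ± 28.7 and 486 ± 23.7 CPM (adjusted p = 0.81), GRN, progranulin, at 397 ± 49.9 and 380.0 ± 14.4 CPM (adjusted p = 0.671), and NPC2, the soluble cholesterol carrier, at 143 ± 18.8 and 124 ± 13.03 CPM (adjusted p = 0.232). All 3 were at an unadjusted p above 0.05.

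The proton pump was close to level, with 1 of its 5 genes higher. ATP6AP1, an accessory subunit (chromosome X, 154428632 to 154436516), held 127, 128 and 152 CPM in control cells against 186, 180.1 and 195 CPM under CD69 overexpression (log2 fold change 0.46, SE 0.09, adjusted p = 0.00685). The subunits of the catalytic and stalk parts overlapped between groups. ATP6V1B2 differed least, at 171 ± 1.34 CPM in the controls and 170.2 ± 2.77 CPM in the overexpressing cells. The log2 fold changes of ATP6V1B2, ATP6V1H, ATP6V0D1 and ATP6V1A lay between -0.08 and -0.01, with SE of 0.05 to 0.10. For ATP6V1A the call depended on control replicate 3, without which it was -0.18 (adjusted p = 0.044).

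The autophagy genes gave 1 rise and 1 fall among 5. ULK1, the kinase that starts autophagosome formation (chromosome 12, 131894651 to 131923167), held 52.9, 50.7 and 55.1 CPM in control cells against 71.8, 68.1 and 65.3 CPM under CD69 overexpression (log2 fold change 0.37, SE 0.07, adjusted p = 0.00715). SQSTM1, a receptor that is itself degraded with its cargo (chromosome 5, 179806398 to 179838078), held 220.0, 234 and 254 CPM in control cells against 195, 189 and 204 CPM under CD69 overexpression (log2 fold change -0.27, SE 0.07, adjusted p = 0.0298). Its call was lost without control replicate 2 (adjusted p = 0.0874) and without overexpressing replicate 1 or 2 (0.092 and 0.132), and its exons overlap on the opposite strand those of MRNIP, which did not pass, and MGAT4B, which fell. MAP1LC3B, whose lipid-bound protein marks autophagosomes, was at 48.3, 48.1 and 46.9 CPM against 52.9, 53.5 and 57.9 CPM, and WIPI1, a phospholipid-binding protein of the forming membrane, at 11.6, 10.5 and 9.83 against 12.4, 13.6 and 12.5 CPM. In both, all overexpressing libraries were above all controls without passing (adjusted p = 0.0701 and 0.127). The exons of WIPI1 overlap those of ARSG on the opposite strand over 24.3% of their length, and ARSG fell (-0.44, SE 0.11). GABARAPL1, another small protein of the autophagosome membrane, had a log2 fold change of -0.34 (SE 0.17, adjusted p = 0.183).

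The genes of the set differed by position on the genome, which is not part of the rule that names them. All 7 members on chromosomes X and 20 were called higher: LAMP2, GLA, ATP6AP1 and TFE3 on X and LAMP5, CTSA and CTSZ on 20. On these chromosomes, 62.4% of the 612 coding genes of at least 5 mean CPM were called higher, with a median log2 fold change of 0.46. The median of the 7 members was 0.59. On the other chromosomes, 6 of 32 members were higher and 6 lower, or 18.8% each way, beside 15.1% and 16.2% of the 9636 coding genes there. The whole-chromosome shift of X and 20 was known from an earlier look at these data.

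Closer neighbours were compared in a window chosen after the values were seen, all coding genes of at least 5 mean CPM within 2.5 Mb on either side of a member. The neighbours' median log2 fold change was above 0.2 around 11 members, where it ranged from 0.25 to 0.79, and between -0.21 and 0.08 around the other 28. Of the 11, 9 were called higher and CTSH and GABARAPL1 were not called. Of the 28, 4 were higher (CTSD, ASAH1, LIPA and ULK1), 6 lower and 18 not called. TFEB sat among 43 such neighbours on chromosome 6, of which 40 (93%) were higher and none lower, with a median of 0.68 beside 1.09 for TFEB itself. HEXA had 22 neighbours on chromosome 15 with a median of 0.38, beside its own 0.46. CTSH, also on chromosome 15, had 26 neighbours with a median of 0.47 and itself stood at 0.10. CTSZ, GLA and ATP6AP1 differed from their neighbours' medians by -0.25, -0.04 and 0.01. LAMP2 exceeded its neighbours' median by 0.36, CTSA by 0.30 and TFE3 by 0.12. LAMP5 exceeded its 5 neighbours' median by 5.75 and CTSD exceeded its own by 1.61. GABARAPL1 starts 452 kb from CD69 on chromosome 12 and had a log2 fold change of -0.34. Of its 22 neighbours, 12 were higher and 1 lower, with a median of 0.33. The log2 fold change of CD69, which lies in this window, was also 0.33, so it did not stand above that median.

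**Figure D3:**
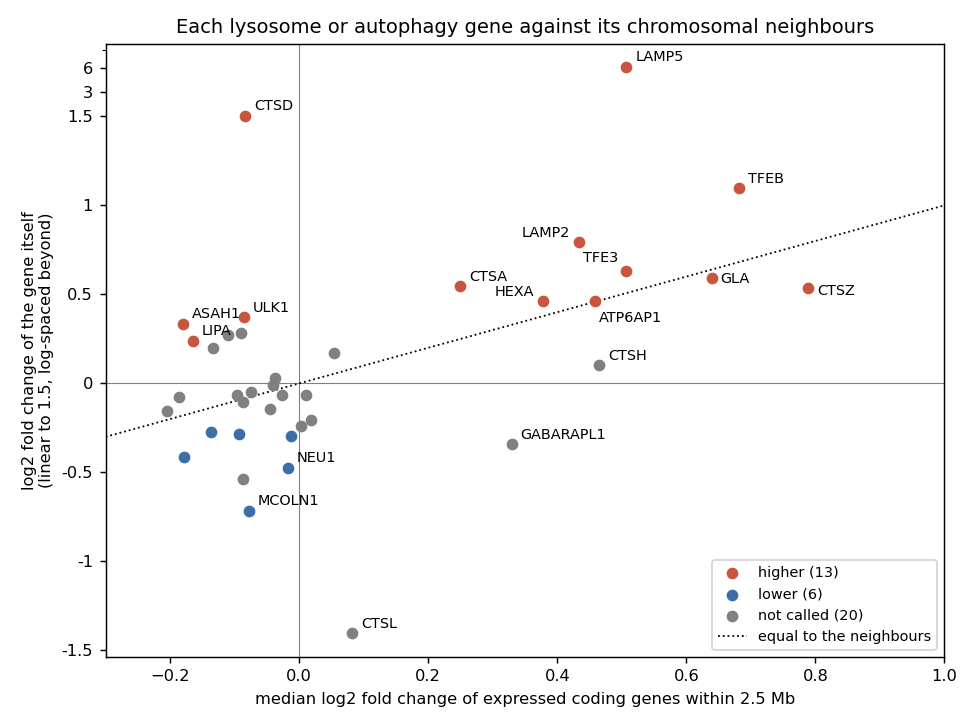
Each point is 1 of the 39 genes: the x axis is the median log2 fold change of expressed coding genes within 2.5 Mb, the y axis the gene's own log2 fold change (linear to 1.5, log-spaced beyond), and the dotted line marks equality. Of the 13 genes called higher (red), 9 lie at neighbour medians above 0.2, while CTSD, ASAH1, LIPA and ULK1 lie at medians below 0.

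Wider lists of the same organelle were read from the same fit. Of 182 tested genes in 7 lists that exclude the 39, 27 (14.8%) were higher and 34 (18.7%) lower, with a median log2 fold change of -0.01. These shares lie near those of the expressed coding genes (17.9% and 15.6%), and among all genes tested 14.2% were higher and 9.94% lower. Single lists ranged from 5% to 25% higher and from 6.25% to 50% lower, the highest values being those of the 4 tested cystatins. Among the 182 tested genes of the 7 lists, the 11 on chromosomes X and 20 gave 7 higher and no lower calls, and the 171 elsewhere gave 20 higher and 34 lower. The higher count of the 7 lists was 17 and 16 without control replicate 1 or 2, but 38 without control replicate 3. It was 21, 18 and 21 without overexpressing replicate 1, 2 or 3. The lower count was 22 without overexpressing replicate 2 and 35 without control replicate 3.

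Of 40 other tested hydrolases and lumen proteins, 7 rose and 11 fell. SCPEP1, a serine carboxypeptidase, fell from 368 ± 1.85 to 183 ± 6.62 CPM (log2 fold change -1.01, SE 0.06). FUCA1, the fucosidase, fell from 70.5 ± 1.80 to 49.1 ± 0.604 CPM. PLA2G15, a lysosomal phospholipase, rose from 17.5 ± 1.79 to 36.4 ± 1.68 CPM, and CTSV from 1.07 ± 0.235 to 5.33 ± 1.03 CPM (SD, n = 3). GLB1, the beta-galactosidase that joins CTSA and NEU1 in a complex, was named after its values were seen and rose by 0.29 on the log2 scale.

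Of 35 other membrane proteins, 5 rose and 7 fell. NPC1, which hands cholesterol on from NPC2 across the membrane, rose from 46.4 ± 5.65 to 143 ± 10.3 CPM (1.62 on the log2 scale, SE 0.11), while NPC2 did not pass. TPCN1, a cation channel, and SIDT2 rose by 0.45 and 0.63 on the log2 scale. MFSD12, OSTM1 and CD164 fell by 0.74, 0.62 and 0.56. Of 16 other proton pump genes, 2 rose and 1 fell: TCIRG1, a membrane subunit, fell from 172 ± 12.97 to 119.5 ± 5.13 CPM. The rises were ATP6AP2 (chromosome X, 0.28) and ATP6V0E2 (0.43). Both lost their calls without control replicate 1 or 2 or overexpressing replicate 1, and ATP6V0E2 also without overexpressing replicate 2 or 3 (adjusted p = 0.0606 to 0.119 over these).

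Genes that sort enzymes to lysosomes or fuse vesicles with them gave 5 rises and 5 falls among 29. Among the tethering subunits, VPS16 (chromosome 20) rose from 55.7 ± 1.71 to 118 ± 2.83 CPM (1.09 on the log2 scale, SE 0.06), while VPS18 and VPS39 fell by 0.67 and 0.29. The SNARE genes VAMP7 (chromosome X) and SNAP29 differed in direction (0.70 and -0.55), and the adaptor GGA1 rose by 0.52. The nutrient-sensing list, which holds genes of mTORC1 and its regulators and also TFEC, gave 1 rise and 5 falls among 20. TFEC, described above, was among the falls. MLST8, an mTORC1 subunit, fell from 161 ± 21.3 to 106 ± 3.65 CPM and RRAGD, a Rag GTPase, from 57.7 ± 3.29 to 43.1 ± 0.726 CPM. RRAGA rose by 0.39 (SE 0.09), a call that did not survive leaving out control replicate 1 or 2, or overexpressing replicate 1 or 3 (adjusted p = 0.0582 to 0.0818).

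Core autophagy genes gave 6 rises and 3 falls among 38. BNIP3, a mitophagy receptor, rose from 5.04 ± 1.31 to 20.8 ± 1.70 CPM (2.04 on the log2 scale, SE 0.20), TAX1BP1, a cargo receptor, from 234 ± 23.1 to 345 ± 10.4 CPM and the protease ATG4A from 9.09 ± 1.03 to 15.5 ± 2.15 CPM. ATG5, part of the conjugation machinery, fell from 74.3 ± 6.33 to 47.9 ± 4.21 CPM. BECN1 (-0.23) and ULK2 (-1.79, under 1 CPM in both groups on average) also fell, BECN1 losing its call without control replicate 1 or 2 or any 1 overexpressing library, and ULK2 without control replicate 2 or 3 or overexpressing replicate 2 or 3 (adjusted p = 0.0707 to 0.108 over these). Of 4 tested cystatins, which inhibit cysteine cathepsins, CST7 (chromosome 20) rose from 205 ± 21.1 to 1253 ± 96.7 CPM. CSTA and CSTB fell from 53.3 ± 5.45 to 29.9 ± 5.10 and from 184 ± 23.6 to 128 ± 14.9 CPM, the latter not passing without overexpressing replicate 2 (adjusted p = 0.0663).

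**Figure D4:**
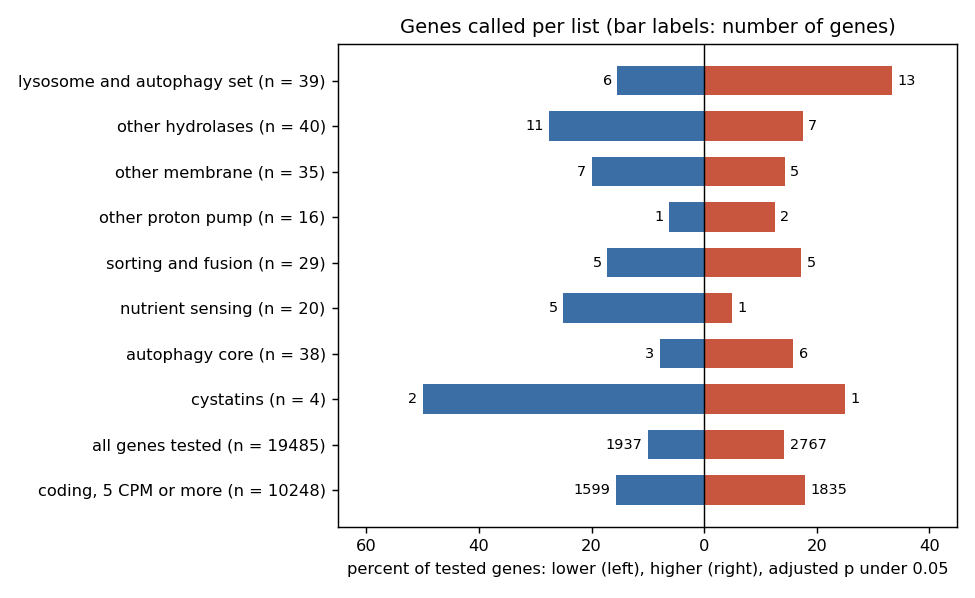
Bars give the percent of tested genes called higher (right, red) and lower (left, blue) in each list, with the number of genes at the bar's end. The set of 39 shows 13 higher and 6 lower, and the other hydrolases, membrane, nutrient-sensing and cystatin lists show more lower than higher.

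Levels could be ranked between genes only per length, as mean CPM per kilobase of annotated exon. In the controls CTSD stood at 274 ± 38.4, followed by PSAP at 147 ± 8.85, PPT1 at 144 ± 6.25 and LAMP1 at 126 ± 3.04 CPM per kb (SD, n = 3). PSAP and PPT1 did not differ beyond their spread. GRN (108 ± 13.6) and CTSZ (93.1 ± 10.5) came after LAMP1. SGSH was last at 0.213 ± 0.0559, with MITF (1.05), GABARAPL1 (1.65) and LAMP5 (2.11) just above it. In the overexpressing cells CTSD was still in the top place at 789.7 CPM per kb, and LAMP5 had moved from place 36 of 39 to place 2, at 162 CPM per kb. Summed over the set, the level was 7193, 7204 and 7961 CPM in control cells against 9513, 9340 and 9887 CPM under CD69 overexpression. Most of that difference lay in 1 gene, CTSD, with 857 ± 119.9 CPM against 2469 ± 157.9 CPM (SD, n = 3). The 7 cathepsins with CTSD included summed to 1918 to 2255 CPM against 3683 to 4015 CPM, while the 11 other hydrolases summed to 2274 to 2424 against 2212 to 2278 CPM.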

How the data were processed

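A single table of counts per gene for 6 libraries was deposited by the authors; per the labels' protocols, poly(A) RNA was read in pairs from strand-specific libraries. FastQC, fastp, STAR, featureCounts (Subread) and GRCh38 are named per the submitters' processing notes. Their versions, the annotation release, strand setting and counting unit are not given in the sources used here. Values as deposited by the authors were handled as estimated counts. They are whole numbers, so rounding left them as they were. In control replicate 1, 1496 genes had exactly 4 counts and 777 had 3, so a fragment may carry several counts and real depth may lie below the totals. Libraries of a group differed by more than sampling noise (chi-square over its degrees of freedom, on counts over 4). The value was 2.37 between control replicates 1 and 2, and 14.2 and 13 between these and control replicate 3. Between overexpressing replicates 1 and 2 it was 4.5, and between these and overexpressing replicate 3 it was 9.07 and 8.17.

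Genes were kept by filterByExpr (19485), scaled by TMM and tested two-sided with edgeR 4.0.16 (glmQLFit, glmQLFTest; R 4.3.3), with Benjamini-Hochberg adjustment over all genes tested and a threshold of 0.05. Every adjusted p is from this test unless another is named. SE is the size of the log2 fold change over the square root of F. Positions, exon overlaps and exon lengths (all annotated exons merged, which lowers per-kilobase levels of genes with long rare exons) are from GENCODE 29, and promoters from RefSeq. The authors' annotation may differ. Of the 39 genes, 18 share exon bases with another annotated gene, 6 of them on the same strand. Alternatives were 3 other scalings, 2 filters, DESeq2 1.42.0, limma-voom 3.58.1, glmTreat against a fold of 1.2, a replicate block, counts divided by 4, each library left out, and overexpressing replicate 1 alone. All 39 genes are named, with up to 3 called genes per direction and list by smallest p. Some genes that this rule names are not reported here. Members and lists were chosen with earlier results of these data known. Figures were drawn with matplotlib 3.10.9.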

Additional observations from a re-analysis of the deposited data

How the results depend on the processing

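Over 17 alternatives, the fold changes of the 39 genes were on the same side of zero and of the threshold as the main value in 601 of 663 cases. Of the 19 called genes, LAMP2, LAMP5, CTSD and TFEB kept their call under all 17 alternatives, and 15 kept it under the 15 that exclude the fold-1.2 test and replicate 1 alone. Against a fold of 1.2, 8 members were higher and 2 lower, 15 and 18 genes of the 7 other lists, and 1723 and 874 genes in all; that test asks for a larger change. With overexpressing replicate 1 alone, 4 members were higher and 0 lower (edgeR; 4 lower at an unadjusted p under 0.05), 8 and 4 genes of the other lists, and 797 and 380 in all; this lone library is assumed to vary like the controls. Leaving out 1 library gave 12 to 13 members higher and 3 to 8 lower, 16 to 38 and 22 to 35 genes of the other lists, and 1783 to 2917 and 1137 to 2226 genes in all. The counts over all genes moved most without overexpressing replicate 2 (1783 higher, 1137 lower) and, for the lower ones, without control replicate 1 (1227) or 2 (1287). Uncalled values near 0 changed sign, with these ranges when 1 library was left out: PSAP -0.0067 to 0.0813, GRN -0.1334 to 0.0487, ATP6V0D1 -0.1298 to 0.0373, ATP6V1H -0.127 to 0.0388 and MITF -0.3236 to 0.0935. PSAP turned negative without control replicate 1 or 2 or overexpressing replicate 1, GRN, ATP6V0D1 and ATP6V1H positive without control replicate 3, and MITF positive without overexpressing replicate 3 and with replicate 1 alone (0.33). The cause was not tested. Same-numbered libraries showed little shared deviation over all genes (correlations -0.03, 0.05 and 0.07) and did not all correlate best with their own number, so the numbers were not taken as pairs. Among the 39 genes, replicate 3 was the highest of its group in both groups for 19 and the lowest in both for 4. This was not counted over all genes, so it cannot be read as particular to the set. By the chi-square values given above, replicate 3 was also the most distant library of its group in both groups. Whether the 2 groups shared this deviation of replicate 3 was not tested further. With the replicate block 15 members were higher and 7 lower, CD63 (adjusted p = 0.00923), TPP1 (0.0223) and NPC2 (0.0184) being added, and 3194 and 2669 genes in all. Other scalings shifted the median of all genes by less than 0.1.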
